A study of Homo sapiens with 21 samples.

Results

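The heat shock protein genes HSPA1A, HSPA1B, HSPA8, HSPH1, DNAJB1, HSP90AA1, HSP90AB1, HSPB1, HSPD1 and HSPE1 were followed across 21 xenograft tumors, as 10 of the 60651 human genes in the deposited count table. They were picked out by gene symbol, and all 10 passed the filter on low counts in every comparison. The tumors were grown under the skin of female athymic nu/nu mice of 6 to 8 weeks from A549-Luc2 cells, a luciferase-marked derivative of the human lung adenocarcinoma line A549, injected with Matrigel. Mice received vehicle (DMSO, ethanol, PEG400 and corn oil) by mouth every day, or Oxy186 or Oxy210, related semisynthetic oxysterols, at 50 mg/kg in the same vehicle, and 7 tumors per group were sequenced. All tumors came from 1 cell line, nude mice lack mature T cells, and mouse stroma and vessels remained in the tissue, although only reads on human genes were counted.

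Heat shock proteins are molecular chaperones that bind unfolded proteins and either help them fold or hand them over for degradation. Heat shock factor 1 (HSF1) switches on the inducible members when unfolded proteins build up, by binding inverted repeats of the base triplet GAA, called heat shock elements, near their start sites. HSP70 and HSP90 chaperones work in the cytosol and nucleus and keep many kinases and transcription factors of cancer cells in shape, whereas HSP60 and its lid HSP10 fold proteins inside mitochondria.

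Each library held between 13787493 and 17865119 counts, and the lowest count of any of the 10 genes in any tumor was 435 (HSPA1B), so counting error was small beside the differences between tumors. The 7 epithelial and A549 markers (keratins KRT8, KRT18 and KRT19, EPCAM, ALDH1A1, AKR1C1 and AKR1B10) were detected in every group, at 14500 to 24300 summed CPM (counts scaled to a common library size). Leukocyte markers (PTPRC, CD3E and CD68) reached at most 0.582 CPM in sum and endothelial markers 5.88 CPM. For fibroblasts and mural cells the sum was 18.8 to 72.3 CPM, nearly all from COL1A1, while COL1A2 had at most 1 count in any tumor. In bulk tissue, fewer cells with a transcript and less transcript per cell cannot be told apart, and each p-value measures the spread between tumors. The study singled out Oxy186-treated samples r1-r4 on a principal component plot of these same libraries and deposited normalized values for them, so the comparison of r1-r4 with control describes chosen tumors and is no independent evidence. Libraries also differed in how counts depended on the GC content of a gene's exons. The GC slope, in log2 CPM per 10 percentage points of GC, was -0.51 to -0.18 in r1-r4, -0.15 to 0.40 in the control group, 0.08 to 0.49 in Oxy186-treated samples r5-r7 and -0.33 to 0.26 in Oxy210-treated samples. Exon GC content of the 10 genes ran from 38.1% (HSPH1) to 63.6% (HSPB1), so values with this trend removed are given where they change a result.

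The sequences just upstream of the start sites show how the near-identical pair HSPA1A and HSPA1B compares with HSP90AA1 and HSPB1. Each line holds the 250 bases before a RefSeq start site on GRCh38.p14, 5′ to 3′ on the gene's strand, and capitals mark heat shock elements of 2 or 3 units (GAANNTTC or TTCNNGAA for 2, GAANNTTCNNGAA or TTCNNGAANNTTC for 3, which read the same set on both strands, and a match of 3 units also holds matches of 2). None of these 4 windows overlaps an exon annotated in GENCODE 44.
HSPA1A, chr6:31815293-31815542, plus strand: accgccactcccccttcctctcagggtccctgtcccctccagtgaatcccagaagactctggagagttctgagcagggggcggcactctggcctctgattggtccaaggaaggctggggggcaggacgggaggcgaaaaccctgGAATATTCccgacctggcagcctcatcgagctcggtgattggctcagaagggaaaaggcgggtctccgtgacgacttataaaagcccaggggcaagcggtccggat
HSPA1B, chr6:31827488-31827737, plus strand: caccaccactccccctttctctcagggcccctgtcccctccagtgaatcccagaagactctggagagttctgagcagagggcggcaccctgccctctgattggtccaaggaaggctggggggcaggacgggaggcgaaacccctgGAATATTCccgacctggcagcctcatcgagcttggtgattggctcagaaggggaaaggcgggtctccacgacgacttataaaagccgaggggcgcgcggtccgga
HSP90AA1, chr14:102087045-102087294, minus strand: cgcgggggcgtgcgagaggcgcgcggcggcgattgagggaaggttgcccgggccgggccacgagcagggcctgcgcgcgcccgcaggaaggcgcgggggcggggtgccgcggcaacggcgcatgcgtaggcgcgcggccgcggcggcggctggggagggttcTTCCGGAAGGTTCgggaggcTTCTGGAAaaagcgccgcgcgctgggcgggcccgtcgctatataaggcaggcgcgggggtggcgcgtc
HSPB1, chr7:76302423-76302672, plus strand: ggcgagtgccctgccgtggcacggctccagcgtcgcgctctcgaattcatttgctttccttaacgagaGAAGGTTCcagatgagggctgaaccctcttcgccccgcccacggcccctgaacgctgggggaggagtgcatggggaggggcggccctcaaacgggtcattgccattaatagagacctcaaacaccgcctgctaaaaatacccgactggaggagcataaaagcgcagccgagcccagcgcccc
The upstream windows of HSPA1A and HSPA1B were 93.6% identical (235 aligned bases the same, 14 mismatched and 2 gaps), and both held the single element GAATATTC, which begins at position -106 from the HSPA1A start site and at -105 from that of HSPA1B. HSP90AA1, the stress-inducible cytosolic HSP90, had a 3-unit element beginning at -88 and a separate 2-unit element beginning at -68. HSPB1, which encodes the small heat shock protein HSP27, had 1 element of 2 units beginning at -182.

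For 4 more genes the windows run into annotated exons of other transcripts, so stretches of 30 bases around an element are shown in place of the windows. They show 1 of the 3-unit elements each of the constitutive cytosolic chaperones HSPA8 and HSP90AB1, overlapping 3-unit matches in a run of 18 bases for the mitochondrial HSPD1, and 1 of the 2-unit elements of DNAJB1.
HSPA8, chr11:123062345-123062374, minus strand: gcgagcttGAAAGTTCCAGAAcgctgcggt
HSP90AB1, chr6:44247823-44247852, plus strand: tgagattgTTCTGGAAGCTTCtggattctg
HSPD1, chr2:197500061-197500090, minus strand: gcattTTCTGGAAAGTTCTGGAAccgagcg
DNAJB1, chr19:14518456-14518485, minus strand: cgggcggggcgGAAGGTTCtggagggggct
RefSeq lists 16 start sites for the 10 genes. Of these windows 8 (50.0%) held a 2-unit match, against 11.6% of all 35116 promoter windows in the table, and 4 (25.0%) held a 3-unit match, against 0.441%. The 4 genes with a 3-unit match were HSPA8, HSP90AA1, HSP90AB1 and HSPD1, and no match was found in the windows of HSPH1 and HSPE1. HSPD1 and HSPE1 lie head to head on chromosome 2, and 1 of the HSPD1 windows shared 104 bases with that of HSPE1. All 250 bases of the HSPE1 window (chr2:197500129-197500378, plus strand) lie in annotated exons, and HSPE1 itself is annotated from position 197500140. The HSPD1 stretch shown above (chr2:197500061-197500090) lies outside this window, upstream of that position on the HSPE1 strand. The missing match in the HSPE1 window therefore does not show that HSPE1 lacks an element nearby. A match of these letters is a description of the sequence and not evidence of binding.

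Within the control group, levels per kilobase of transcript put the constitutive chaperones on top. HSP90AB1, the constitutive cytosolic HSP90, stood first at a median of 518 CPM per kilobase (462 to 689.9), followed by HSPA8, the constitutive HSP70 (HSC70), at 401 (334 to 626) and HSPB1 at 372 (239 to 682). HSP90AA1 had 357 CPM per kilobase (310.4 to 745), HSPD1, the mitochondrial chaperonin HSP60, had 208 (177 to 329), and HSPE1, its co-chaperonin HSP10, had 96.9 (69.0 to 188). The lowest levels belonged to DNAJB1, the J-domain protein (HSP40) that delivers clients to HSP70, at 61.5 CPM per kilobase (52.0 to 74.0), to the stress-inducible HSP70 genes HSPA1A at 58.7 (39.9 to 93.5) and HSPA1B at 27.9 (20.8 to 53.1), and to HSPH1, the exchange factor HSP110, at 27.0 (at most 53.9). Ranges of neighbouring genes in this order overlapped in every case. In each control tumor, however, HSP90AB1 lay above HSPA8, HSP90AA1 above HSPD1, HSPD1 above HSPE1, HSPE1 above DNAJB1 and HSPA1A above HSPA1B. The other neighbours changed places between tumors. HSPA1A and HSPA1B are each 1 exon long, and 72.4% of 100-base windows of the HSPA1A transcript and 68.9% of those of HSPA1B occur identically in the other gene, so their counts of uniquely mapped reads understate both levels. Pseudogene counts were at most 0.379% of the parent gene's count for every family but HSPE1, where they reached 3.42%. Reads that map equally to a gene and its pseudogene are in neither count. These shares therefore cannot show how many reads each gene lost, which may differ between genes. The 10 genes took 0.41% to 0.772% of all counts in the control group (median 0.454%), 0.409% to 0.78% in Oxy186-treated samples (median 0.623%) and 0.538% to 0.739% in Oxy210-treated samples (median 0.615%), with overlapping ranges.

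**Figure D1:**
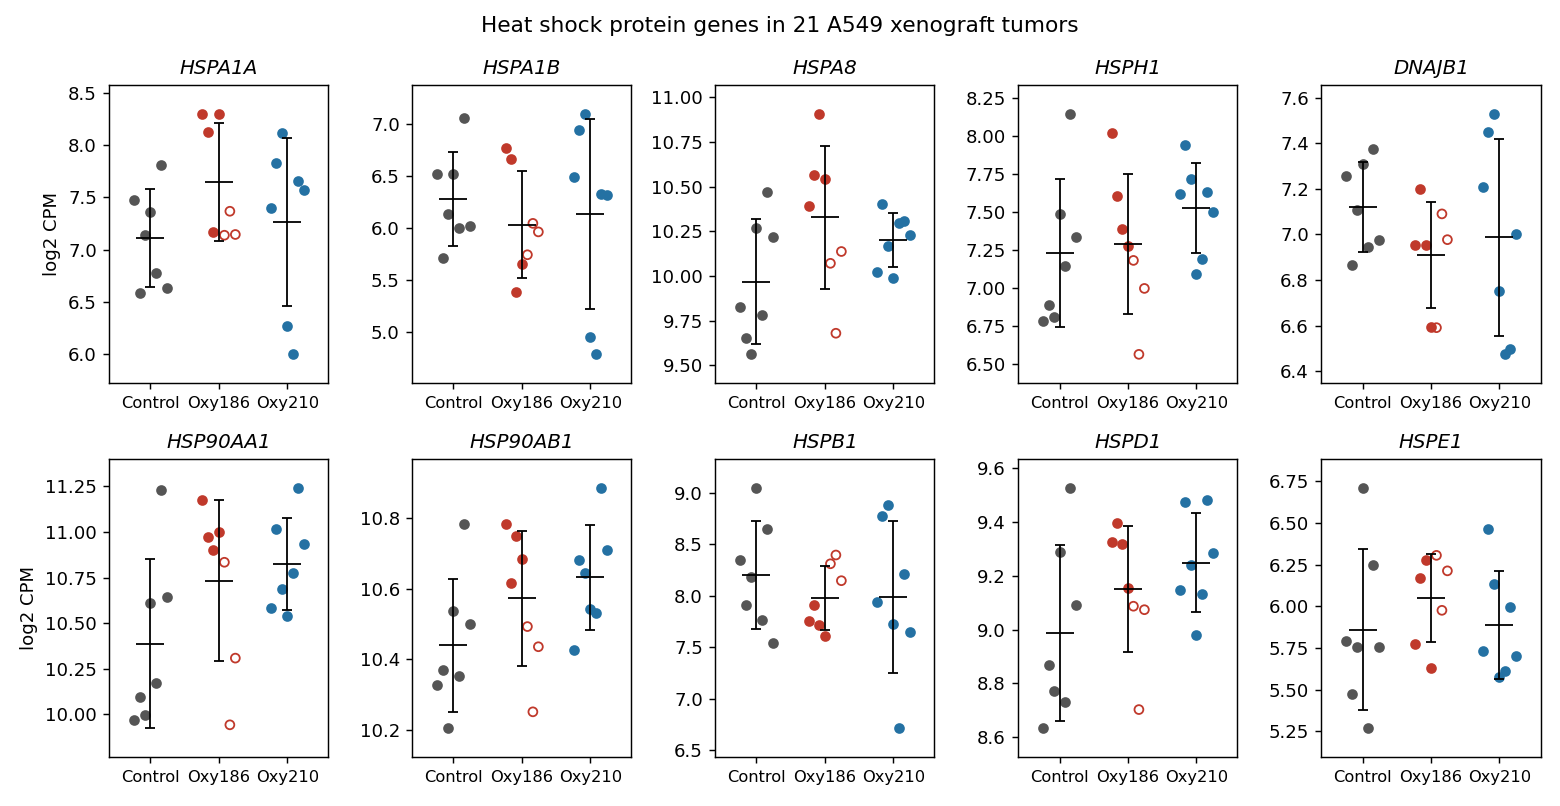
Log2 CPM of the 10 genes in each of 21 tumors (1 point per tumor, filled red for Oxy186-treated samples r1-r4 and open red for r5-r7, with bars for the group mean and SD of n = 7 and a separate vertical scale in each panel). In every panel the 3 groups overlap, and HSPA1A reaches 315 CPM in Oxy186-treated samples against 224 CPM in the control group.

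Oxy210 was compared with control to ask whether this compound changed the chaperone genes. None of the 10 genes was called at an adjusted p at or under 0.05 (edgeR's quasi-likelihood test, Benjamini-Hochberg), where 0% of 16396 tested genes were called. At an unadjusted p under 0.05 the count was 1 of 10 genes and 2270 of all tested genes (13.8%). limma voom called 0 genes and DESeq2 called 92, none of them a heat shock protein gene of the 10. HSP90AA1 had 1487 CPM in the lowest Oxy210-treated sample, 1752 in the median one and 2425 in the highest, against 1002, 1154 and 2404 in the control group. Its Oxy210-treated samples overlapped with the control range, and the highest of them lay just above the highest control, at a log2 fold change of 0.41 ± 0.19 (SE, n = 7 per group, adjusted p = 0.342 by edgeR). HSP90AB1 had 1377, 1601 and 1893 CPM against 1181, 1324 and 1763 (log2 fold change 0.21 ± 0.11, edgeR adjusted p = 0.39), and HSPD1 had 505, 604 and 716 CPM against 397, 467 and 739 (0.26 ± 0.14, edgeR adjusted p = 0.398). HSPA1A, HSPA1B and HSPB1 were spread most widely among Oxy210-treated samples, with the highest tumor 4.34, 4.99 and 4.47 times the lowest, against 2.34, 2.55 and 2.85 times in the control group. On the log2 CPM scale their SD was 0.80, 0.91 and 0.74 in Oxy210-treated samples, against 0.46, 0.45 and 0.52 in controls. With the GC trend removed it was 0.61, 0.70 and 0.475, against 0.42, 0.47 and 0.49. The part of GC in this spread was not tested. Of the 10 log2 fold changes 8 were above 0, with a median of 0.22, beside 51.3% of all tested genes above 0 and a median of 0.01.

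All 7 Oxy186-treated samples were then compared with control. Again 0 of 10 genes were called, with 0% of 16291 tested genes called, and 1 of 10 genes had an unadjusted p under 0.05, as did 618 of all tested genes (3.79%). limma voom and DESeq2 each called 0 genes. That 1 gene was HSPA1A, at 140.7, 165 and 315 CPM (lowest, median and highest) against 95.8, 140.9 and 224 in the control group. Its upper tail lay above the controls, and the log2 fold change was 0.56 ± 0.25 (SE, n = 7 per group, edgeR adjusted p = 0.862). With GC offsets from the whole exon its log2 fold change was 1.06 ± 0.33, a fold of 2.08 (edgeR adjusted p = 0.842). With the GC content of the windows not shared with HSPA1B it was 0.71 ± 0.26, a fold of 1.63 (edgeR adjusted p = 0.841). HSPA1B, which encodes the same protein, had 41.7, 62.3 and 109 CPM against 52.4, 70.2 and 134 and a log2 fold change of -0.24 ± 0.24 (edgeR adjusted p = 0.866). It was 0.10 with GC offsets from the whole exon and -0.18 with the GC content of its unshared windows. HSPA8 had 820 to 1920 CPM against 756 to 1418, with a log2 fold change of 0.35 ± 0.19 (edgeR adjusted p = 0.862). DNAJB1 and HSPB1 had log2 fold changes of -0.22 ± 0.13 and -0.30 ± 0.21, which GC offsets moved to -0.025 and 0.28, and the other 5 genes lay between 0.03 and 0.31. In all, 7 of 10 log2 fold changes were above 0 with a median of 0.12, beside 48.9% of all tested genes and a median of -0.01.

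Oxy186 and Oxy210 were given at the same dose, so they were also compared with each other directly. No gene of the 10 was called (0% of 16361 tested genes, 14 genes by DESeq2 and 0 by limma voom), and 0 of 10 had an unadjusted p under 0.05, against 664 of all tested genes (4.06%). With GC offsets 0 of 10 and 0.00611% of tested genes were called. The 10 log2 fold changes of Oxy186 over Oxy210 ran from -0.23 (HSPA1B) to 0.32 (HSPA1A), with a median of -0.09 beside -0.01 for all tested genes. Their 95% confidence intervals show how much difference the data leave possible. The narrowest was that of HSP90AB1, from -0.31 to 0.18, and the widest that of HSPA1B, from -0.91 to 0.45, while HSPA1A ran from -0.32 to 0.95. GC offsets moved HSPA1A from 0.32 to 0.65 (edgeR adjusted p = 0.648) and HSPB1 from -0.13 to 0.21. With the GC content of the windows not shared with HSPA1B, HSPA1A was at 0.40 (edgeR adjusted p = 0.741). In none of the 3 comparisons of complete groups did the log2 CPM ranges of any of the 10 genes separate, where 0.182% (Oxy210 against control), 0.0235% (Oxy186 against control) and 0.0647% (Oxy186 against Oxy210) of all 16990 genes did.

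**Figure D2:**
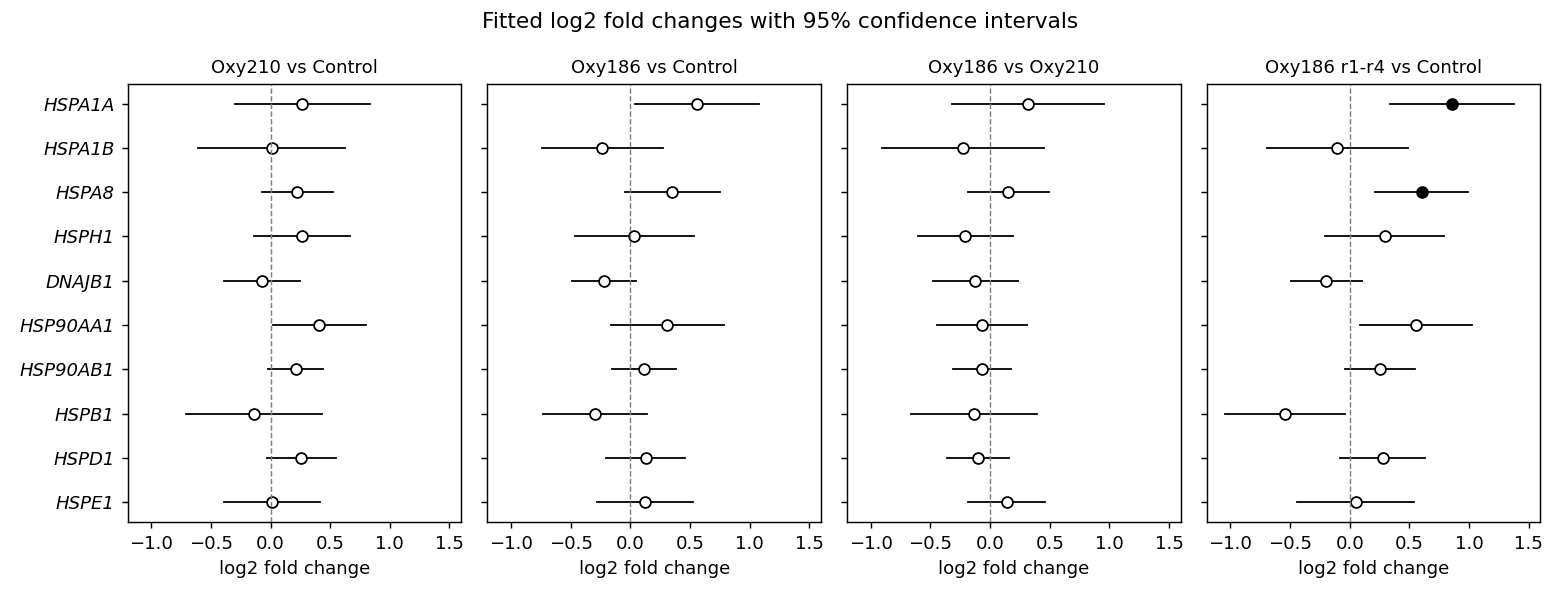
Fitted log2 fold changes of the 10 genes (horizontal axis) with 95% confidence intervals in 4 comparisons, filled where the adjusted p was at or under 0.05. Only HSPA1A at 0.86 and HSPA8 at 0.61 in Oxy186-treated samples r1-r4 against control are filled.

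In the 4 Oxy186-treated samples singled out by the study, HSPA1A and HSPA8 were called as higher than in the control group. HSPA1A had 315, 279, 144 and 314 CPM in r1, r2, r3 and r4, so 3 of 4 tumors lay above the highest control (224 CPM) and r3 lay inside the control range. The log2 fold change was 0.86 ± 0.24 (SE, n = 4 and 7, edgeR adjusted p = 0.0231), a fold of 1.82. HSPA8 had 1344, 1516, 1920 and 1493 CPM against at most 1418 in the control group, with a log2 fold change of 0.61 ± 0.18 (edgeR adjusted p = 0.0312) and a fold of 1.52. The 2 called genes of 10 stand beside 19.7% of 16852 tested genes called in this comparison, 4.73% as higher and 15% as lower. That is near the share called in either direction and above the share called as higher, a difference that was not tested. With the study's added threshold of a fold over 2, 0 of 10 genes and 8.34% of tested genes were called. HSP90AA1 had 2317, 2012, 1911 and 2047 CPM in r1-r4 against 1002 to 2404 in the control group, and its log2 fold change of 0.56 ± 0.22 had an edgeR adjusted p of 0.084. HSPB1 had 215, 240.2, 209.6 and 196 CPM against 186 to 529.6 in the control group, with a log2 fold change of -0.54 ± 0.24 (edgeR adjusted p = 0.116). For the other 6 genes the log2 fold changes ran from -0.20 (DNAJB1) to 0.29 (HSPH1). No gene's 4 tumors separated from the 7 controls, as 11.6% of all genes did. With the GC trend removed, HSPA1A did separate, as did 4.79% of all genes, with r3 at 7.89 log2 CPM against 7.78 in the highest control. That removal used the GC content of the whole HSPA1A exon. Ranges with the GC content of the windows not shared with HSPA1B were not compared. In r5-r7, HSPA1A had 140.7 to 165 CPM and HSPA8 820 to 1126, inside the control range.

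Those calls changed when single tumors were left out or the GC trend was removed. HSPA1A had an adjusted p of 0.0636 without r1 and 0.0616 without r4, and HSPA8 had 0.0509 without r2, 0.113 without r3 and 0.0536 without r4 (edgeR). With the GC trend of each library entered as offsets, HSPA1A stood at a log2 fold change of 1.56 (edgeR adjusted p = 0.00252) and HSPA8 stayed at 0.61 with an adjusted p of 0.0743, while 4.05% of tested genes were called, 1.79% as higher. This offset uses the GC content of the HSPA1A exon, 59.8%, although the windows that set it apart from HSPA1B have 53.3%. With the GC content of those windows the HSPA1A log2 fold change was 1.08 (edgeR adjusted p = 0.017). HSPB1, the member richest in GC, turned from -0.54 to 0.54 under the offsets, and HSPA1B from -0.10 to 0.46. With the GC content of its own unshared windows HSPA1B was at 0.009 (edgeR adjusted p = 0.99). When the counts of HSPA1A and HSPA1B were added up, as 1 HSP70 gene, the log2 fold change was 0.58 (edgeR adjusted p = 0.104).

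**Figure D3:**
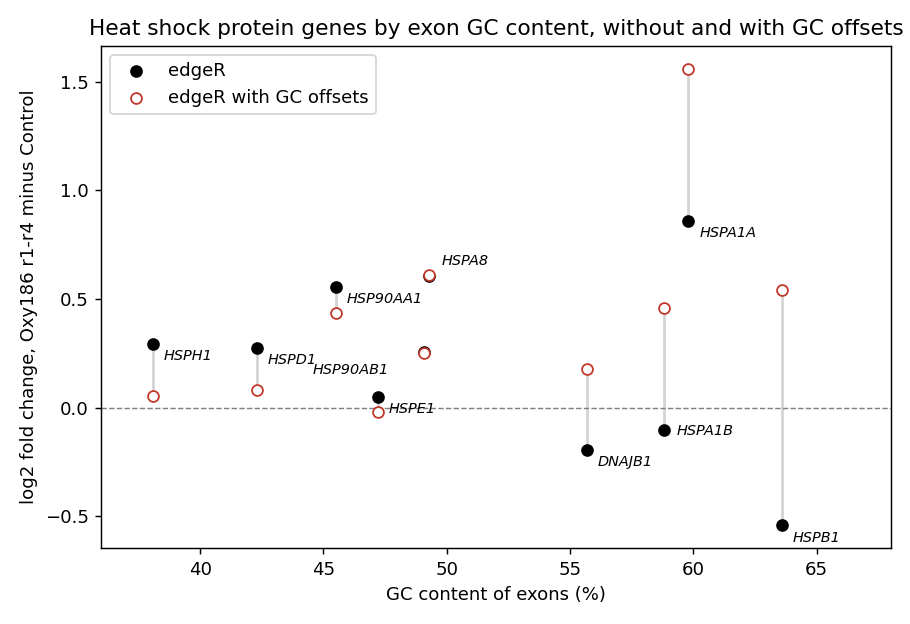
Log2 fold change of Oxy186-treated samples r1-r4 (n = 4) over control (n = 7) against the GC content of each gene's exons in percent, from edgeR without (black) and with (open red) GC offsets, joined by a line for each gene. Genes of high GC content move up under the offsets, HSPB1 from -0.54 to 0.54 and HSPA1A from 0.86 to 1.56, and HSPA8 at 49.3% GC stays at 0.61.

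The ratio of HSPA1A to HSPA1B counts was higher in every Oxy186-treated sample than in any control, while the sum of both genes was not called in any comparison. This ratio was noticed in the counts of these same tumors, so its values are a description and no test is given. HSPA1A had 1.54 to 2.01 counts for each HSPA1B count in the control group, 1.84 to 2.52 in Oxy210-treated samples and 2.27 to 6.25 in Oxy186-treated samples. In r1 to r7 of the Oxy186 group the ratio was 2.88, 2.75, 3.44, 6.25, 2.63, 2.50 and 2.27. Oxy210-treated samples overlapped with both other groups. On the log2 scale the ratio was 0.83 ± 0.13 (SD, n = 7) in the control group, 1.13 ± 0.19 in Oxy210-treated samples and 1.62 ± 0.49 in Oxy186-treated samples, so that Oxy186 lay above control by 0.79, Oxy210 above control by 0.30 and Oxy186 above Oxy210 by 0.49. Without r1-r4 the Oxy186 group lay above control by 0.47 and above Oxy210 by 0.17. With the GC trend removed the differences of all 7 tumors were 0.83, 0.32 and 0.51. Exon GC content of the 2 genes is 59.8% and 58.8%, so the trend nearly cancels in their ratio. These values therefore cannot show the part of GC. In the Oxy210 group r4-r7, of negative GC slope, had ratios of 2.33 to 2.52. Those of r1-r3, of positive slope, were 1.84 to 2.02. Oxy186-treated samples r3 and r4 had the lowest slopes of their group. Controls ran the other way. Control r1 and r3, of the highest slopes in that group (0.40 and 0.29), had its highest ratios, 1.94 and 2.01. Control r7, the only control of negative slope, had the lowest ratio, 1.54. This relation was not tested. Of the log2 ratios of all 45 pairs among the 10 genes, this was the only 1 whose ranges separated between Oxy186 and control, beside 0.0265% of 92582028 pairs among 13608 genes. In the comparisons of Oxy210 with control and of Oxy186 with Oxy210 0 of 45 pairs separated (0.224% and 0.0813% of all pairs). In r1-r4 against control 4 of 45 pairs did, HSPA1A to HSPA1B, HSPA1A to HSPB1, HSPA8 to DNAJB1 and DNAJB1 to HSPD1, beside 13.5% of all pairs. The log2 ratio of HSP90AA1 to HSP90AB1, which share no 50-base window, overlapped between the groups, with differences of 0.24, 0.21 and -0.03 for Oxy210 over control, Oxy186 over control and Oxy186 over Oxy210. Both HSP70 counts come only from reads that map to 1 place, and how many reads were dropped as shared was not analysed here. HSPA1B also shares 36.6% of its exon bases with another annotated gene on the same strand (ENSG00000285565 in GENCODE 44), and HSPA1A shares none, so the 2 counts may be reduced unequally. The part of this in the ratio was not tested.

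**Figure D4:**
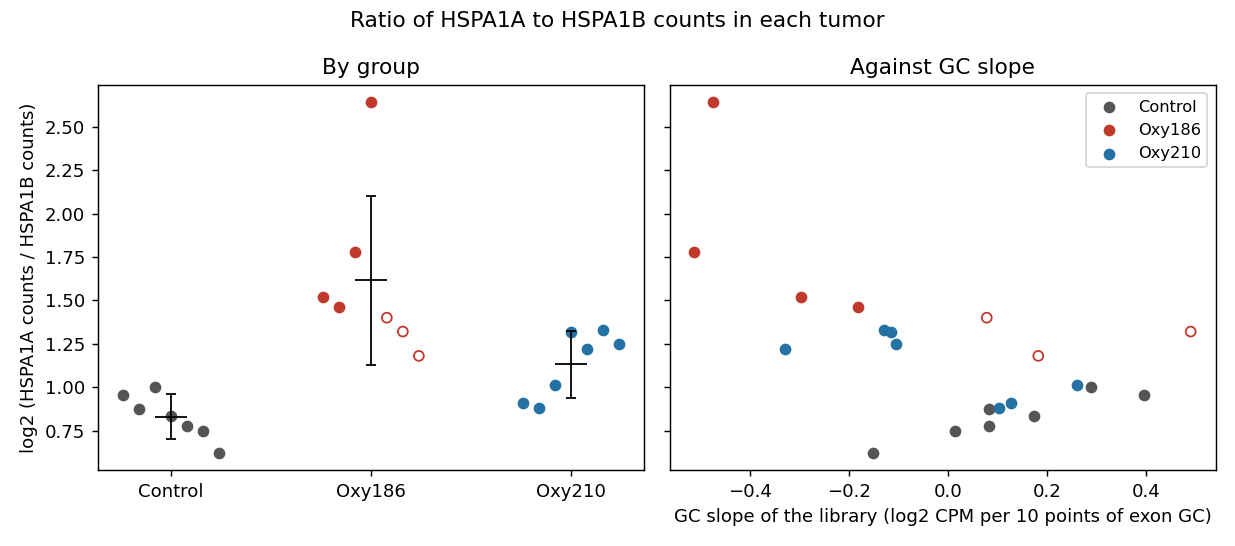
Log2 of HSPA1A counts over HSPA1B counts in each of 21 tumors, by group with mean and SD (n = 7, left) and against the GC slope of the library in log2 CPM per 10 percentage points of exon GC (right), with filled red points for Oxy186-treated samples r1-r4 and open red for r5-r7. All 7 Oxy186-treated samples lie at 1.18 or above and all 7 controls at 1.0 or below.

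Many pairs of the 10 genes varied together across tumors of the same group, but not all. Pearson r of log2 CPM was taken over 17 tumors, leaving out Oxy186-treated samples r1-r4 and removing group means, with 100000 permutations within groups and adjustment over all 45 pairs. It was above 0 in 43 of 45 pairs, with a median of 0.61 and a range of -0.06 to 0.97, and 26 pairs passed at 0.05 after adjustment. Over all 92582028 pairs of 13608 genes 50.4% were above 0, and 8.42% had an r at or above that median. DNAJB1 had r = -0.06 with HSP90AA1 and 0.00 with HSP90AB1. With the GC trend removed, 45 of 45 pairs were above 0 (median 0.66) and 31 passed, and 2.71% of all gene pairs had an r at or above that median. All pairs share the same libraries, so their values are not independent of each other. HSPA1A and HSPA1B were closest, with r = 0.97 and Spearman's rho = 0.94 (permutation p = 1e-05, the smallest that 100000 permutations give, and 2e-05), and r = 0.92 without the 2 tumors farthest from the median. HSP90AA1 and HSPH1 had r = 0.86 and rho = 0.86 (permutation p = 0.0002 and 0.00024, adjusted 0.001 and 0.00154), and r = 0.82 without the 2 farthest tumors. The mitochondrial pair HSPD1 and HSPE1 had r = 0.75 and rho = 0.77 (permutation p = 0.00266 and 0.0011, adjusted 0.00704 and 0.00354), and r = 0.80 without 2 tumors. HSPA1A and its co-chaperone DNAJB1 had r = 0.73 and rho = 0.72 (permutation p = 0.00607 and 0.00351, adjusted 0.0137 and 0.0079) and r = 0.62 without 2 tumors, but r = 0.52 with the GC trend removed (adjusted permutation p = 0.0834). Both genes are rich in GC and both followed the GC slope of the library, with r = 0.61 for HSPA1A and 0.73 for DNAJB1 (adjusted over 10 genes, permutation p = 0.048 and 0.0238, Spearman's rho 0.46 and 0.64, permutation p = 0.0759 and 0.012, and r = 0.48 and 0.64 without 2 tumors). Values within each group of 7 tumors are given as a description, without a test of their difference. Within the control group r was above 0 in 45 of 45 pairs (median 0.70), within Oxy210-treated samples in 42 (median 0.66) and within all 7 Oxy186-treated samples, r1-r4 included, in 28 (median 0.13, from -0.91 to 0.93). In the Oxy186 group HSPB1 ran opposite to HSP90AB1 (r = -0.91), HSPA8 (-0.88), HSP90AA1 (-0.77), HSPD1 (-0.74), HSPH1 (-0.70) and HSPA1A (-0.63), and HSPA1A opposite to HSPE1 (-0.78). In the control group r was 0.81 for HSPA1A and HSPB1. HSPD1 and HSPE1 had r = 0.06 and HSPA1A and DNAJB1 r = 0.03 in the Oxy186 group, against 0.74 and 0.97 in the control group. GC slopes of the Oxy186 libraries ran from -0.51 to 0.49. HSPB1 averaged 7.75 log2 CPM in r1-r4 and 8.28 in r5-r7, but 8.55 and 7.80 with the GC trend removed. With it removed, HSPA8 (10.60 and 9.93), HSP90AB1 (10.70 and 10.37) and DNAJB1 (7.20 and 6.68) were also higher in r1-r4. HSPE1 stayed lower there (5.90 and 6.19). Values of r within groups were not computed with the trend removed, and the part of GC in them was not tested.

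**Figure D5:**
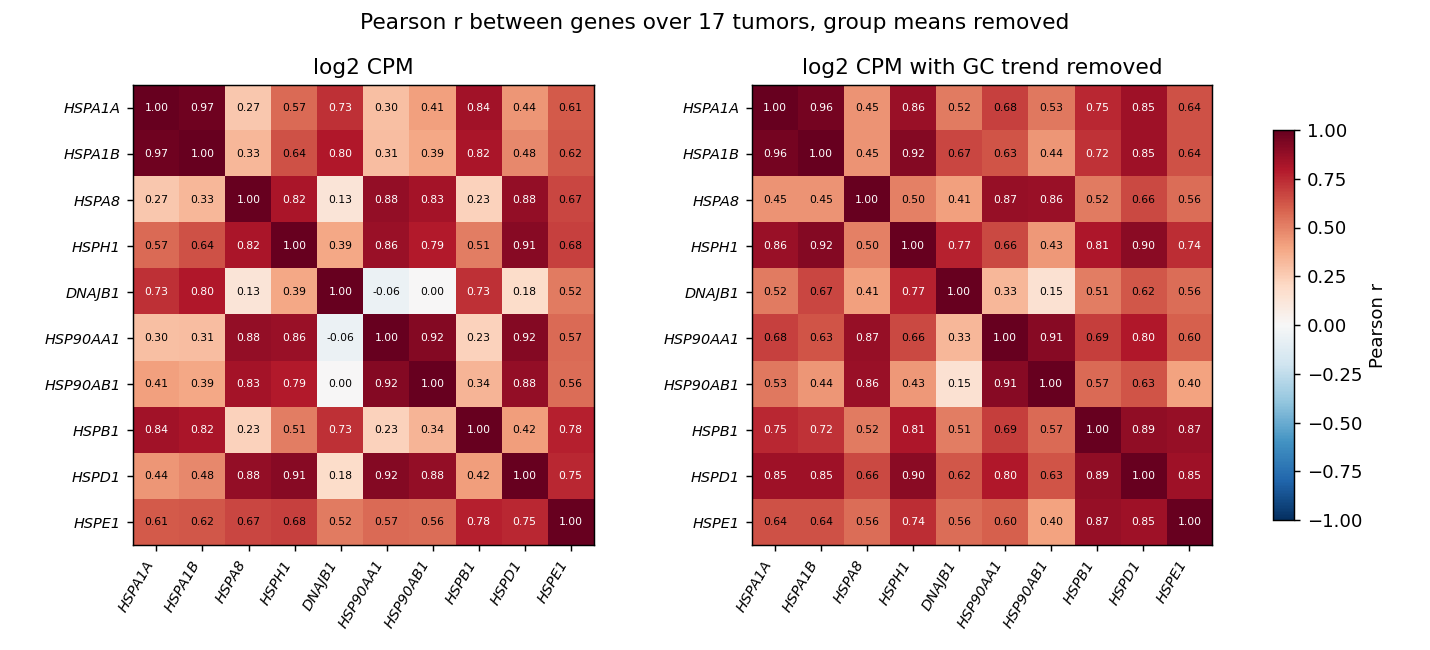
Pearson r between the 10 genes over 17 tumors (all but Oxy186-treated samples r1-r4) with group means removed, from log2 CPM (left) and from log2 CPM with each library's GC trend removed (right), on a color scale from -1 to 1. HSPA1A with HSPA1B (0.97 and 0.96) is the closest pair in both panels, and DNAJB1 with HSP90AA1 changes from -0.06 to 0.33.

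The genes whose pattern over these 17 tumors was most like that of 4 of the 10 were taken from 13608 genes on log2 CPM with the GC trend removed, and their r is given as a description. For HSPA1A they were HSPA1B (0.96), CCDC102A (0.89) and FAM50B (0.88), with HSPH1 in place 4 (0.86). HSPD1 was followed by RHBDL3 (0.96), by DNAJB6 (0.93), a J-domain co-chaperone, and by STIP1 (0.93), the HOP protein that links HSP70 to HSP90. HSP90AA1 stood beside ICE2 (0.92), its paralog HSP90AB1 (0.91) and the nuclear export receptor XPO1 (0.91), with HSPA8 in place 9 (0.87). DNAJB1 had FLRT2 (0.92), OSBPL6 (0.91) and TXNL4B (0.91) ahead of any of the other 9 genes, of which HSPH1 came first, in place 202 (0.77).

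Other genes of the chaperone network gave 0 calls in the comparisons of Oxy210 with control, Oxy186 with control and Oxy186 with Oxy210 (edgeR, adjusted p at or under 0.05). Of all tested genes 0% were called in each of these comparisons, so the count is not particular to the chaperone network. Among the 4 heat shock factor genes, HSF1 was at a log2 fold change of -0.41 ± 0.17 in Oxy210-treated samples (edgeR adjusted p = 0.32) and -0.49 ± 0.24 in Oxy186-treated samples (edgeR adjusted p = 0.862). Both values shrank with GC offsets, to -0.11 and 0.07, at an exon GC content of 65.4%. FKBP4, an HSP90-binding immunophilin, had 0.52 ± 0.18 in Oxy210-treated samples (edgeR adjusted p = 0.279), and AHSA1, the activator of HSP90 ATPase, had 0.31 ± 0.12 in Oxy186-treated samples (edgeR adjusted p = 0.862). Both belong to the 17 other stress-induced chaperone genes, of which 12 lay above 0 under Oxy210 (median 0.19) and 13 under Oxy186 (median 0.08). All 14 subunits of the cytosolic chaperonin CCT and of prefoldin, which fold actin and tubulin, lay above 0 in Oxy186-treated samples against control (median 0.18, or 0.10 with GC offsets), PFDN2 at 0.37 ± 0.15 and CCT5 at 0.32 ± 0.16 (edgeR adjusted p = 0.862 for each), and 11 of 14 did in Oxy210-treated samples (median 0.04). Of the 11 mitochondrial chaperones and proteases 3 lay above 0 under Oxy210 (median -0.08) and 6 under Oxy186 (median 0.01), with CLPP at -0.50 ± 0.24 and -0.40 ± 0.30. The 10 chaperones of the endoplasmic reticulum had medians of 0.05 and 0, with DNAJB9 at -0.28 ± 0.16 and -0.33 ± 0.18. Of the HSP70 co-chaperones 14 of 14 were tested under Oxy210 and 13 under Oxy186, and of 10 HSP90 co-chaperones 9 in each. The medians of both lists lay between 0.01 and 0.08 in both comparisons with control. BAG1, an exchange factor for HSP70, had -0.37 ± 0.14 under Oxy210 (edgeR adjusted p = 0.296), and PPID, an HSP90-binding cyclophilin, had 0.42 ± 0.14 (edgeR adjusted p = 0.27).

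In Oxy186-treated samples r1-r4 against control, where 4.73% of tested genes were called as higher and 15% as lower, several genes of these lists passed. CCT5, CCT8 and PFDN4 rose (3 of 14 genes, log2 fold changes 0.53, 0.40 and 0.90), as did the HSP70 co-chaperones DNAJC7, ST13, BAG2 and BAG4 (4 of 14, 0.41 to 0.60), AHSA1 (1 of 17, 0.42), the HSP90 co-chaperone SUGT1 (1 of 9, 0.44), and PDIA6 and DNAJB11 of the endoplasmic reticulum (2 of 10, 0.36 and 0.45). HSF1 fell by 0.97 on the log2 scale and HSF4 by 1.04 (2 of 4), HSPBP1, an HSP70-binding exchange factor, by 1.02 (1 of 14), FKBP8 by 0.95 (1 of 9), and the mitochondrial proteases LONP1 and CLPP by 0.66 and 0.91 (2 of 11), each with an edgeR adjusted p at or under 0.0417. The 6 genes that fell have 57.2% to 65.4% GC in their exons, and the 11 that rose have at most 48.7%. With GC offsets 0 of these 17 genes were called (edgeR, lowest adjusted p 0.0634 for PFDN4), and HSF1 stood at 0.29 and FKBP8 at 0.01. The 17 were picked as called without offsets, and over all tested genes the calls fell from 3323 to 683. The offsets called 4 others in their place, named after their values were seen: STUB1, the ubiquitin ligase CHIP (1.13, edgeR adjusted p = 0.00221), STIP1 (0.69, edgeR adjusted p = 0.0213), CALR (0.49, edgeR adjusted p = 0.0348) and PFDN2 (0.60, edgeR adjusted p = 0.0475). They were 1 of 14, 1 of 17, 1 of 10 and 1 of 14 genes of their lists. Of all tested genes 4.05% were called with the offsets, 1.79% as higher.

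Immediate early genes, which can rise within minutes of tissue handling, were counted beside the heat shock genes. All 8 (FOS, FOSB, JUN, JUNB, EGR1, IER2, ATF3 and DUSP1) lay below 0 in both treated groups against control, with medians of -0.29 under Oxy210 and -0.37 under Oxy186, and 0 of 8 were called in either comparison (unadjusted p under 0.05 for 1 and 2 genes, edgeR). Of all tested genes 0% were called in both comparisons, and 13.8% and 3.79% had an unadjusted p under 0.05 (edgeR). In r1-r4 all 8 were below 0 as well and IER2 fell by 0.91 on the log2 scale (edgeR adjusted p = 0.024). That was 1 of 8 genes called as lower, near the 15% of all tested genes called as lower there. With GC offsets 0 of 8 were called in r1-r4, beside 4.05% of all tested genes, and IER2 stood at -0.06. The median of the 8 moved from -0.42 to -0.08, and in all Oxy186-treated samples from -0.37 to -0.18. EGR1 had log2 fold changes of -1.06 ± 0.45 (edgeR adjusted p = 0.32) and -1.23 ± 0.51 (edgeR adjusted p = 0.862), at a mean log2 CPM of 0.84, 0.62 and 1.59 in Oxy210-treated, Oxy186-treated and control tumors. Their part in the values of the heat shock genes was not tested.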

How the data were processed

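RNA from 21 A549-Luc2 xenograft tumors (RIN over 8 as the study states, with no value per sample) was sequenced as 1 library each, and groups and replicate numbers were taken from the sample titles. The authors trimmed reads with Trimmomatic 0.39, aligned them with STAR 2.7.6a to a combined human (GRCh38.p13) and mouse (GRCm39) genome, and counted uniquely mapped reads per human gene with featureCounts (Subread 2.0.1), and they deposited these raw counts. Whether counting used strand is not given in the sources used here, so reads of HSPA8, DNAJB1, HSP90AA1, HSPD1 and HSPE1 where a gene on the other strand overlaps cannot be told apart. The authors also deposited log2 CPM values of r1-r4 from the Oxy186 group and of all controls, after filterByExpr and TMM scaling in edgeR. Log2 CPM computed here (prior count 2) differed from them by less than 1e-09 for all 16852 genes.

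Counts were tested with edgeR 4.0.16 (quasi-likelihood, after filterByExpr and TMM, in R 4.3.3) in the 2 groups of each comparison, with p-values adjusted over all tested genes and a call at an adjusted p at or under 0.05. The study itself used limma voom and a fold over 2 besides. SE was the log2 fold change divided by the square root of F. Alternatives were limma 3.58.1 voom, DESeq2 1.42.0, other scalings and filters, 1 fit over 21 libraries, GC offsets (splines with 4 degrees of freedom per library over genes averaging a log2 CPM of 1 or more, exon GC known for 99.8% of genes), a block for replicate number, summed HSPA1A and HSPA1B, and leaving out each of r1-r4. The GC offsets that keep a library's mean, those with the GC of unshared windows, and the count ratios were added after the data were seen. Ratios and correlations were computed in python 3.11.15 with numpy 2.4.6 and scipy 1.17.1. No 2 libraries were alike within sampling noise (lowest chi-square per degree of freedom 10.9, Oxy210-treated samples r2 and r3). Labels do not say that a replicate number marks a shared mouse, day or batch, and deviations of same-numbered tumors correlated at -0.54 to 0.41, so the numbers were not taken as pairs.

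The 10 genes and the other lists were chosen with earlier results of these data known. Named beside the 10 were, from each list and comparison, up to 4 called genes per direction or, with none called, the 2 with the smallest p, and the 3 nearest genes by r. Exon positions, GC and shared windows came from GENCODE 44, and promoter sequences from RefSeq on GRCh38.p14. Reads dropped as ambiguous, the mouse reads and tumor growth were not analysed here.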

Additional observations from a re-analysis of the deposited data

Results flagged for a closer look

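Of 36 groups of 7 tumors (the 10 genes on the log2 CPM scale and the log2 ratios of HSPA1A to HSPA1B and of HSP90AA1 to HSP90AB1, in each of 3 treatment groups), 1 had a tumor far from the others by Dixon's test, where chance flags about 1 in 20 groups. It was the log2 ratio of HSPA1A to HSPA1B in Oxy186 r4, at 2.64 against 1.18 to 1.78 in the other 6 tumors of that group, a gap of 0.59 of the group's range. This tumor had 4923 HSPA1A counts and 788 HSPA1B counts. Without it, the Oxy186 mean lay above control by 0.61 and above Oxy210 by 0.31 on the log2 scale.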

How the results depend on the processing

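In the comparisons of whole groups none of the 10 genes was called under any of the 14 alternatives each. DESeq2 gave no adjusted p for HSPA1B and HSPE1 in Oxy186 against Oxy210. The summed fit held 1 row in place of HSPA1A and HSPA1B. In r1-r4 against control 2 genes were called, and also with limma voom, RLE factors, library size alone, either filter, 1 fit over 21 libraries and the replicate block, while DESeq2 called 3 (HSP90AA1 at an adjusted p of 0.0463). With a fold over 2 the count was 0. It was 1 with GC offsets of any kind, with the replicate block and GC offsets together, and with HSPA1A and HSPA1B summed, and 0 to 1 when any of r1-r4 was left out. Over all genes, GC offsets took the calls in r1-r4 from 3323 to 683 (302 higher and 381 lower, against 797 and 2526), the offsets with the mean kept to 842 and a fold over 2 to 1406, while DESeq2 called 92 genes for Oxy210 against control and 14 for Oxy186 against Oxy210, where edgeR called 0. Replicate numbers did not pair the tumors (in no comparison did any tumor correlate best with its own number): the replicate block left 2 calls in r1-r4, HSPA1A (adjusted p = 0.0434) and HSP90AA1 (0.84, adjusted p = 0.0391) in place of HSPA8 (adjusted p = 0.0615). No log2 fold change that changed sign was past the threshold before or after, and the cause was not tested. For Oxy210 against control these were HSPA1B with limma voom (-0.13) and with the replicate block (-0.12), HSPE1 without a filter (-0.002), in 1 fit over 21 libraries (-0.011), with GC offsets (-0.01) and with GC offsets keeping each library's mean (-0.024), DNAJB1 with GC offsets (0.011) and block plus GC offsets (0.005), and HSPB1 with these 2 (0.063 and 0.075) and with the mean kept (0.052). For Oxy186 against control, GC offsets, block plus GC offsets and the mean kept gave 0.098, 0.049 and 0.015 for HSPA1B, -0.074, -0.044 and -0.15 for HSPH1, and 0.28, 0.30 and 0.18 for HSPB1, the mean kept gave -0.021 for HSPD1, and summing gave 0.32 for HSPA1B. For Oxy186 against Oxy210 the same 3 gave 0.21, 0.22 and 0.16 for HSPB1, and summing gave 0.16 for HSPA1B. For r1-r4 against control they gave 0.46, 0.65 and 0.35 for HSPA1B, 0.18, 0.27 and 0.065 for DNAJB1, 0.54, 0.63 and 0.43 for HSPB1, and -0.020, -0.035 and -0.14 for HSPE1, the mean kept gave -0.055 for HSPH1 and -0.032 for HSPD1 (and moved the median of all genes to -0.11), summing gave 0.58 and the GC of unshared windows 0.009 for HSPA1B. Leaving out 1 of r1-r4 took HSPA1B to between -0.33 and 0.10, and HSPE1 to between -0.06 and 0.20. The correlation of HSPA1A and DNAJB1 no longer passed with the GC trend removed (0.52), and the log2 ratio of HSPA1A to HSPA1B, a value with no test, moved without r1-r4 from 0.79 to 0.47 for Oxy186 over control and from 0.49 to 0.17 for Oxy186 over Oxy210, and without Oxy186 r4 to 0.61 and 0.31. Depth did not limit these genes, whereas 7 tumors a group left 95% intervals as wide as -0.91 to 0.45 log2 units (HSPA1B, Oxy186 against Oxy210).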
